A study of Mus musculus with 10 samples.

Results

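The enzymes described here remove superoxide and peroxides: the superoxide dismutases Sod1 and Sod2, catalase (Cat), the glutathione peroxidases Gpx1 to Gpx4, and the peroxiredoxins Prdx1, Prdx5 and Prdx6. These 10 genes were chosen by name, with earlier results of these data known, out of 55414 gene identifiers in the count tables. All 10 were among the 18654 genes with enough counts to be tested. The tissue sequenced was jejunum, a segment of the small intestine that absorbs fat, taken from male C57BL/6J mice whose Retsat alleles were floxed (RetSat flox/flox). In the 5 RetSat ko libraries the mice carried the villin-Cre-ERT2 transgene, and in the 5 control libraries they did not. The villin promoter drives the transgene in the intestinal epithelium, and its Cre recombinase acts once tamoxifen is given. Both groups were injected with tamoxifen on 5 days, and 14 weeks of high-fat feeding followed, with fat supplying 60% of the calories, so the control mice share the floxed alleles, the tamoxifen and the diet. Loss of Retsat and presence of the Cre protein cannot be told apart in this design. The age of the mice and whether animals were pooled are not given in the sources used here, so the p-values measure the spread between these libraries, which may in part be technical.

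Superoxide, a by-product of respiration and of oxidases, is converted to hydrogen peroxide by superoxide dismutases, which need copper and zinc in the cytosol (Sod1) and manganese in the mitochondria (Sod2). Hydrogen peroxide is then split by catalase inside peroxisomes, or reduced by glutathione peroxidases with glutathione and by peroxiredoxins mostly with thioredoxin. Gpx1 to Gpx4 carry selenocysteine in the active site. In the gut, Gpx2 is known as the epithelial glutathione peroxidase of the crypts. Retsat, the deleted gene, codes for retinol saturase, an enzyme of vitamin A metabolism, and in cultured cells its level has been linked to sensitivity to peroxide.

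Libraries held 102844680 to 128730695 counts. Retsat itself was at 15.4 to 33.4 CPM in RetSat ko libraries and 340.2 to 576 CPM in control libraries, where CPM are counts per 1000000 counts of the TMM-adjusted library size (log2 fold change -4.49 ± 0.277 (SE), edgeR adjusted p = 0.000101). All 14 absorptive enterocyte markers were detected, with summed levels of 53103 to 79473 CPM in RetSat ko and 57179 to 90419 CPM in control. Transcripts of pancreatic acinar cells reached 466.5 CPM in RetSat ko 1 and 2618 CPM in RetSat ko 2, against 7.91 to 19.9 CPM in the other RetSat ko libraries and 7.6 to 245.5 CPM in control. Hepatocyte transcripts summed to 138.5 CPM in RetSat ko 5, against 10.3 to 14.4 CPM in the other RetSat ko libraries and 11.6 to 19.3 CPM in control. Leaving out RetSat ko 1 raised the number of genes past an adjusted p of 0.05 to 846, against 6 with all libraries.

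Of the 10 genes, Cat and Gpx2 showed the largest fold differences between the genotypes, and the sequences before their start sites are shown for that reason. The windows run 5′ to 3′ on the gene's own strand, from 250 bases before to 50 bases after the RefSeq start, on build GRCm38.p6. The Cat window is chr2:103485104-103485403 on the minus strand, and the Gpx2 window is chr12:76795505-76795804 on the minus strand. Capitals mark AGGTCA, the hexamer that nuclear receptors recognise, on either strand.
Cat: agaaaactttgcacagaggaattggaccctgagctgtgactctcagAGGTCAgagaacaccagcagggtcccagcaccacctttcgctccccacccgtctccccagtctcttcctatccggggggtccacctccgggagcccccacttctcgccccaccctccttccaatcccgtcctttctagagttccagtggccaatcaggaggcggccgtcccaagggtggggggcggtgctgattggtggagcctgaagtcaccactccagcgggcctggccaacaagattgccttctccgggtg
Gpx2: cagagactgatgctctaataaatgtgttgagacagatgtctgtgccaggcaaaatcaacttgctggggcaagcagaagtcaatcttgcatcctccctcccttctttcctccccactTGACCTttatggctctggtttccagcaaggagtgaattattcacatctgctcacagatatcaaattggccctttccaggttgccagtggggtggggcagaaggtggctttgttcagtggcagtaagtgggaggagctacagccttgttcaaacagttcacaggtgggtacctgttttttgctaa

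The pair differ in base composition. The Cat window was 62.0% G and C with 11 CpG dinucleotides, and the Gpx2 window was 48.3% G and C with 0 CpG dinucleotides. Each held 1 AGGTCA, which began 204 bases before the start of Cat and, read as TGACCT, 134 bases before the start of Gpx2. RefSeq windows were found for 9 of the 10 genes, all but Prdx6, with 4 alternative starts for Gpx4 and 12 windows in all. AGGTCA on either strand was found in 3 of the 12 windows (Cat, Gpx2 and 1 of the 4 Gpx4 windows), and in 16.3% of all 32851 windows of the same length. The end of that Gpx4 window, past the start, was not found in the Gpx4 transcripts searched. The core of the antioxidant response element, the site of the stress factor NRF2, was searched on both strands as TGACNNNGC. It was found in the windows of Sod1 and Prdx1, 56 and 133 bases before the start, and in 12.4% of all windows. No window of these genes held both, so no matches overlap. A match describes letters in the window and is not a measured binding site.

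The 10 genes span a wide range of levels. To compare genes, CPM were divided by annotated exon length in kilobases. Highest was Gpx1, the general cytosolic glutathione peroxidase, at 370.2 ± 22.8 CPM per kilobase in RetSat ko and 331 ± 28.2 in control (SD, n = 5 each). It was followed by Prdx1, a cytosolic peroxiredoxin, with 315 ± 22.1 CPM per kilobase in RetSat ko and 303 ± 25.0 in control. At the low end were Gpx3, the secreted glutathione peroxidase, with 21.2 ± 1.90 CPM per kilobase in RetSat ko and 22.5 ± 1.69 in control, and Sod2 with 11.9 ± 0.647 in RetSat ko and 11.7 ± 0.411 in control. Sod2 has 10008 bases of annotated exon, the most of the 10 genes, so its level per kilobase depends strongly on that annotation. Prdx6 (4804 bases), Sod1 (3970) and Gpx2 (3167, as long as its whole span on the chromosome) also have long annotated exons, against 1441 bases for Gpx1. The order of the genes and their shares of the sum therefore rest on these lengths. Which transcripts the tissue makes was not examined. Among the tested genes, ordered by CPM per kilobase in control, Gpx1 ranked 154 and Sod2 ranked 3819.

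In control the order after Prdx1 was Gpx4 (246 CPM per kilobase), Cat (236), Prdx5 (200.4), Sod1 (119), Prdx6 (70.9) and Gpx2 (49.1). Ranges over the 5 control libraries overlapped between each pair of neighbours from Gpx1 to Prdx5, and did not overlap between neighbours from Prdx5 to Sod2. In RetSat ko the order differed in that Prdx5 (215 CPM per kilobase) stood before Cat (174.5). In 3 of 5 RetSat ko libraries Prdx5 was above Cat, and in 4 of 5 control libraries Cat was above Prdx5. Prdx6 and Gpx2, which did not overlap in control, overlapped in RetSat ko, with Gpx2 at 71.2 ± 18.8 CPM per kilobase and Prdx6 at 73.4 ± 3.81.

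The sum of the 10 genes was 1619 ± 98.3 CPM per kilobase in RetSat ko and 1589.5 ± 99.9 in control. Glutathione peroxidases made up 44.0 ± 1.49% of it in RetSat ko and 40.9 ± 1.85% in control, and peroxiredoxins 37.2 ± 1.89% in RetSat ko and 36.2 ± 0.709% in control. Catalase took 8.97% to 12.5% in RetSat ko libraries and 12.9% to 17.3% in control libraries, ranges that do not overlap. This share rests on the same Cat counts as the comparison of single genes below. Superoxide dismutases took 8.01 ± 0.607% in RetSat ko and 8.19 ± 0.493% in control, and Sod1 held 90.7 ± 0.847% of that class in RetSat ko and 90.9 ± 1.16% in control.

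**Figure D1:**
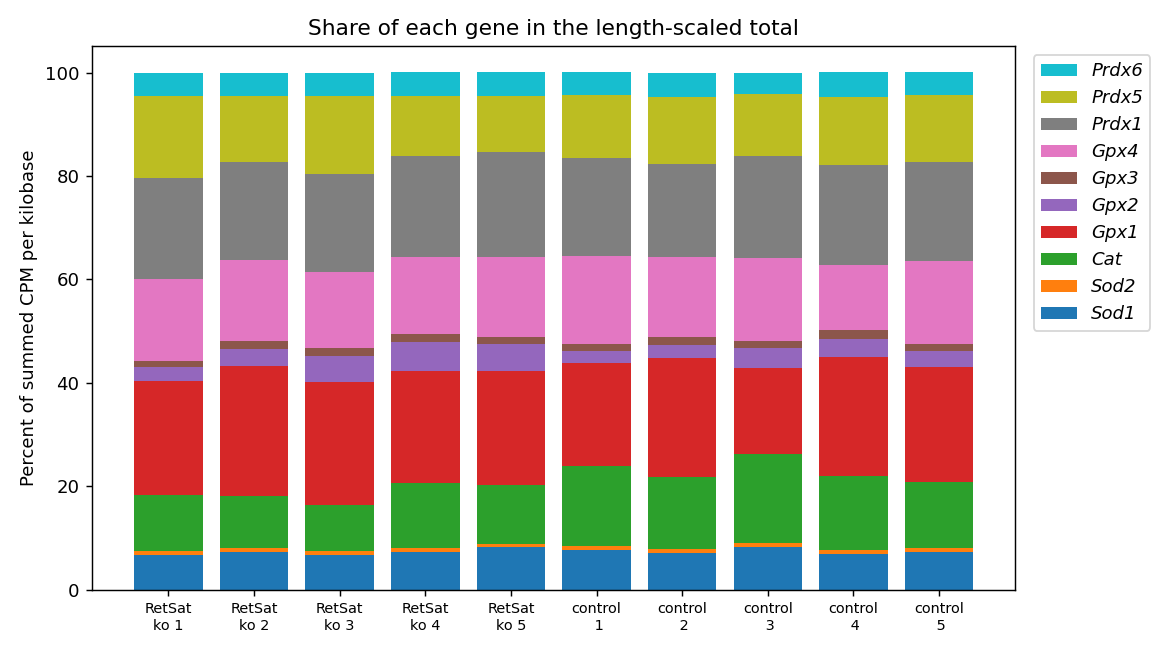
Share of each of the 10 genes in their summed CPM per kilobase (vertical axis, percent), with 1 bar per library, RetSat ko on the left and control on the right. The Cat segment covers 8.97% to 12.5% in RetSat ko and 12.9% to 17.3% in control, while Gpx1 and Prdx1 are the largest of the other segments in every bar.

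With p-values adjusted over all tested genes by edgeR's quasi-likelihood test, 0 of the 10 genes fell under 0.05 between the genotypes, where 0.0322% of all genes did (0.0214% higher and 0.0107% lower in RetSat ko). Leaving out RetSat ko 1 also gave 0 of the 10, where 4.45% of all genes passed. DESeq2 called 0 of the 10 as well (0.659% of all genes), as did limma-voom. At an unadjusted p under 0.05 stood 2 of the 10, Cat and Gpx2, where 12.2% of all tested genes did. In 1 of the 10, Cat, the 5 RetSat ko libraries did not overlap the 5 control libraries, which held for 2.31% of all tested genes. The log2 fold change of RetSat ko over control was positive in 7 of the 10 and negative in 3 (53.9% of all tested genes were positive), and its median was 0.04 over the 10 genes and 0.02 over all tested genes.

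**Figure D2:**
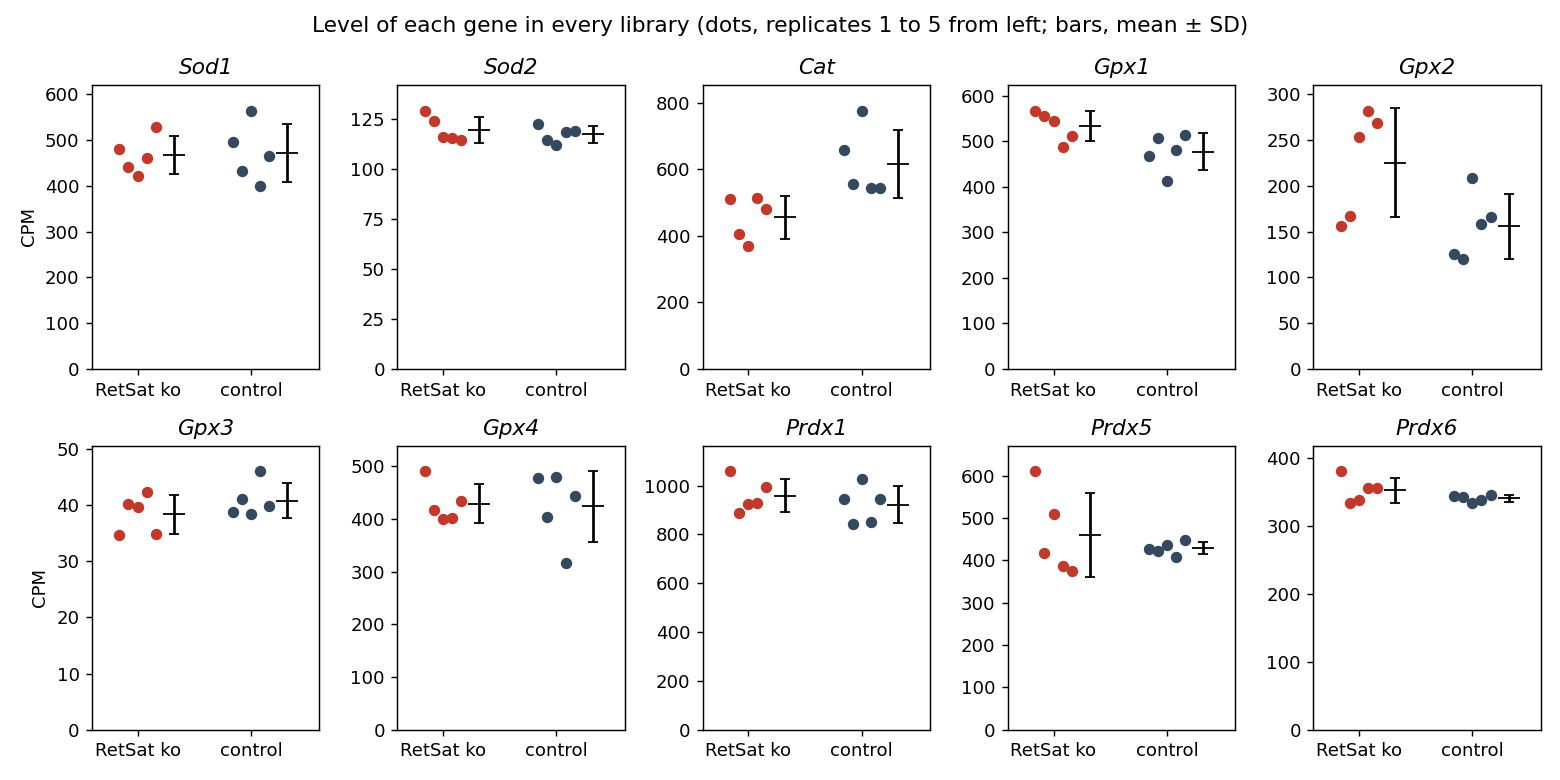
Level of each of the 10 genes in CPM (vertical axes from 0, a scale of its own per panel), with 1 dot per library, RetSat ko left of control, and the mean ± SD beside the dots. The Cat dots of RetSat ko (371 to 514 CPM) lie below all those of control (543 to 776 CPM), and in every other panel the groups overlap.

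**Figure D3:**
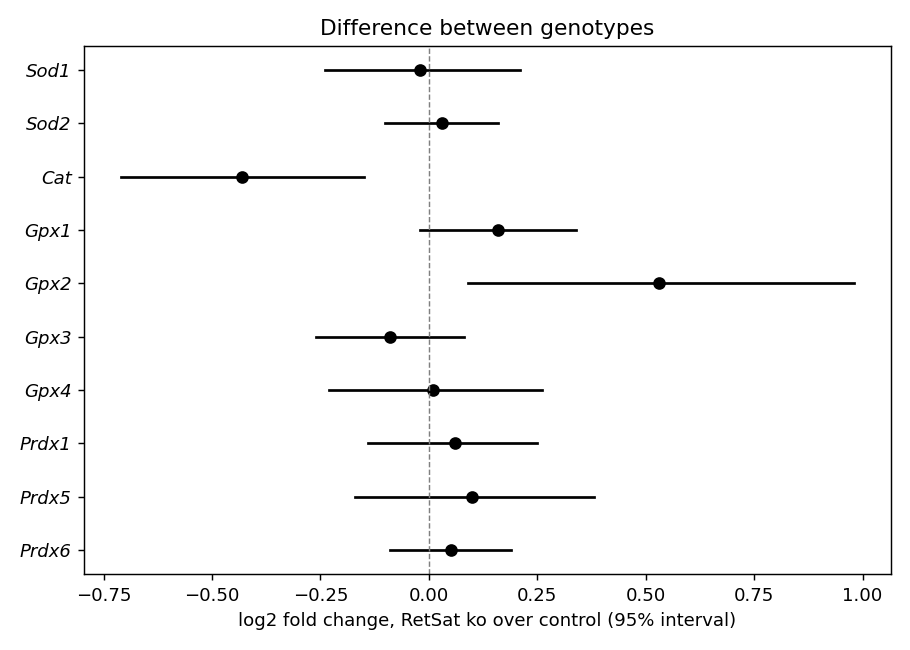
Log2 fold change of RetSat ko over control from edgeR for each gene, with its 95% interval (horizontal axis). The interval of Cat (-0.71 to -0.15) lies below 0 and that of Gpx2 (0.09 to 0.98) above it, before any adjustment for multiple tests, and the other 8 intervals include 0.

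Both superoxide dismutases were at similar levels in the genotypes. Sod1, the copper and zinc enzyme of the cytosol (ENSMUSG00000022982.11, chromosome 16, 90017642 to 90023217, GRCm39), was at 481, 440.5, 422, 461 and 529 CPM in RetSat ko 1 to 5, against 496.5, 432, 564, 399.9 and 466 CPM in control 1 to 5. The groups overlap over most of their range. Its log2 fold change was -0.02 ± 0.103 (SE), with a 95% interval of 0.847 to 1.16 for the fold change (edgeR adjusted p = 0.965).

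Sod2, the manganese enzyme of mitochondria, was at 129, 124, 116, 115 and 114 CPM in RetSat ko 1 to 5, against 122, 114, 112, 118 and 119 CPM in control 1 to 5. RetSat ko 1 and 2 were the highest of all 10 libraries and the other 3 lay within the control range. The fold change was 1.02 with an interval of 0.935 to 1.11 (edgeR adjusted p = 0.866). The highest library was 1.15-fold above the lowest, and the SD of its log2 CPM over all libraries was 0.0633, against a median of 0.165 over the 1971 tested genes with a mean of at least 100 CPM.

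Cat, the peroxisomal enzyme that splits hydrogen peroxide (ENSMUSG00000027187.11, chromosome 2, 103284194 to 103315505, minus strand, GRCm39), had the smallest p of the 10. It was at 509.5, 405, 371, 514 and 481 CPM in RetSat ko 1 to 5, against 659, 556, 776, 543 and 544 CPM in control 1 to 5. Every RetSat ko library lay below every control library, with RetSat ko 4 and control 4 the closest pair. The means were 456 ± 64.4 CPM in RetSat ko and 616 ± 102 CPM in control (SD, n = 5 each), and the log2 fold change was -0.43 ± 0.129 (SE), a fold change of 0.741 with an interval of 0.609 to 0.900. After adjustment over all genes it did not pass (edgeR adjusted p = 0.291, rank 356 by p), nor in DESeq2 (adjusted p = 0.0755) or without RetSat ko 1 (log2 fold change -0.48, edgeR adjusted p = 0.0644).

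All 14 markers of absorptive enterocytes also had a negative log2 fold change (median -0.32, 0 past the threshold). Control 3 and control 1, with the most Cat, also had the highest summed enterocyte levels of all libraries (90419 and 79842 CPM). Control 4, with the least Cat among controls, had the lowest of them (57179 CPM). Control 5 had nearly the same Cat (544 CPM) with a sum of 71940 CPM, above control 2 (64606 CPM, with 556 CPM of Cat). In RetSat ko the most Cat, 514 CPM in RetSat ko 4, went with a sum of 56897 CPM. RetSat ko 1 had an enterocyte sum of 79473 CPM, near that of control 1, with 509.5 CPM of Cat against 659 CPM in control 1. Cat per 1000 CPM of the enterocyte sum was 6.41 to 9.03 in RetSat ko and 7.57 to 9.50 in control, so that the groups overlap on this scale. With the log2 enterocyte sum as a covariate, chosen after seeing the data, the log2 fold change was -0.25 ± 0.107 (edgeR adjusted p = 0.494), and with the crypt sum it was -0.30 ± 0.148 (edgeR adjusted p = 1.0). In these bulk samples fewer enterocytes and less Cat RNA per enterocyte cannot be told apart.

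Cat was also set against Sod1 and Gpx1 rather than the library total. These ratios use the same Cat counts, so they are not a second test, and how often such ratios separate over all genes was not examined. The ratio of Cat to Sod1, both in CPM per kilobase, was 1.61, 1.40, 1.33, 1.69 and 1.38 in RetSat ko 1 to 5, against 2.02, 1.95, 2.09, 2.06 and 1.77 in control 1 to 5. All 5 RetSat ko ratios were below all 5 control ratios. The ratio of Cat to Gpx1 was 0.376 to 0.581 in RetSat ko and 0.583 to 1.04 in control, with the groups barely apart.

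Among the glutathione peroxidases Gpx2 had the largest fold difference. Gpx2 (ENSMUSG00000042808.11, chromosome 12, 76839107 to 76842273, minus strand, GRCm39) was at 156, 167, 254, 282 and 269 CPM in RetSat ko 1 to 5, against 125, 120.1, 209, 158 and 166 CPM in control 1 to 5. RetSat ko 3, 4 and 5 lay above every control library, while RetSat ko 1 and 2 lay inside the control range. The means were 225 ± 59.6 CPM in RetSat ko and 156 ± 35.7 CPM in control (SD, n = 5 each), with a log2 fold change of 0.53 ± 0.204 (SE), a fold change of 1.45 with an interval of 1.06 to 1.98 and an edgeR adjusted p of 0.344. Without RetSat ko 1 the log2 fold change was 0.64 (edgeR adjusted p = 0.0923). Leaving out RetSat ko 1 and 2 and control 4 and 5, the 4 richest in acinar transcripts, gave 0.82 (edgeR adjusted p = 0.197). RetSat ko 1 and 2 had the least Gpx2 of their group, so leaving them out raises the RetSat ko mean by itself.

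Gpx2 was also the most variable of the 10, with a 2.35-fold span between its highest and lowest library and a log2 SD above that of 94.9% of the genes with a mean of at least 100 CPM. All 13 crypt and cell cycle markers had a positive log2 fold change (median 0.29, 0 past the threshold), and their summed level was 814 to 1201 CPM in RetSat ko and 776 to 996 CPM in control. RetSat ko 3, 4 and 5, with the most Gpx2, had crypt sums of 1133, 1043 and 1168 CPM, above every control library. RetSat ko 1, with the least Gpx2 of its group, also had the lowest crypt sum of its group (814 CPM), while RetSat ko 2 had the highest (1201 CPM) with 167 CPM of Gpx2, and control 3 had 209 CPM of Gpx2 with a crypt sum of 796 CPM. Gpx2 per 1000 CPM of the crypt sum was 211 ± 49.2 in RetSat ko (139 to 270.5) and 178.5 ± 56.0 in control (129 to 262), so that the groups overlap on this scale too. With the log2 crypt sum as a covariate, chosen after seeing the data, the log2 fold change of Gpx2 was 0.50 ± 0.295 (edgeR adjusted p = 1.0), and with the enterocyte sum 0.53 ± 0.277 (edgeR adjusted p = 0.583).

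**Figure D4:**
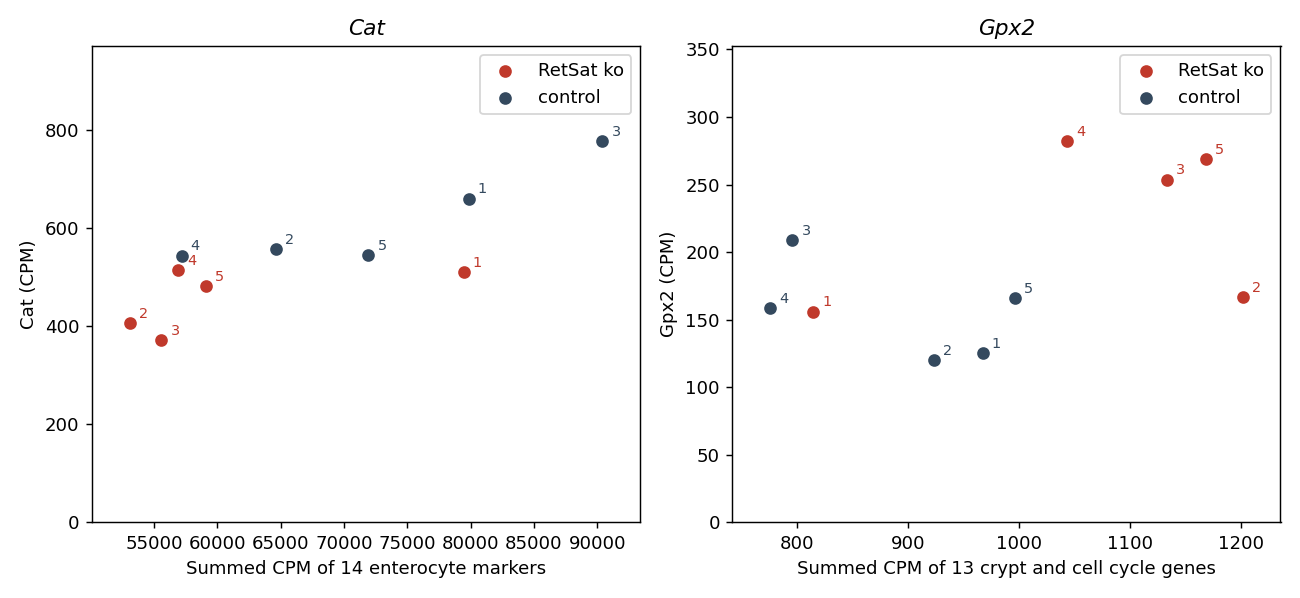
Left, Cat in CPM against the summed CPM of 14 enterocyte markers. Right, Gpx2 in CPM against the summed CPM of 13 crypt and cell cycle genes. Each dot is a library and carries its replicate number. Cat is highest in control 3 and control 1, which also have the highest enterocyte sums, while Gpx2 is high in RetSat ko 3, 4 and 5 but at 167 CPM in RetSat ko 2, the library with the highest crypt sum.

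Gpx1, which reduces hydrogen peroxide in the cytosol, was at 567.5, 556, 544, 488 and 512 CPM in RetSat ko 1 to 5, against 467, 508, 413, 482 and 515 CPM in control 1 to 5. RetSat ko 1 to 3 were above every control library and all 5 were above the control median. The log2 fold change was 0.16 ± 0.0838 (SE), a fold change of 1.12 with an interval of 0.986 to 1.27 (edgeR adjusted p = 0.453).

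Gpx3, the secreted plasma form, was at 34.7 to 42.4 CPM in RetSat ko (median 39.6) and 38.4 to 46.0 CPM in control (median 39.8). RetSat ko 1 and 5 were the lowest of all libraries, and the fold change was 0.940 with an interval of 0.837 to 1.05 (edgeR adjusted p = 0.656). Adipocytes also express Gpx3. Of 8 adipocyte markers 6 had a positive log2 fold change, with a median of 2.08 and 0 past the threshold. Their summed level was 152 to 262.5 CPM in RetSat ko and 169 to 289 CPM in control, and their part in the level of Gpx3 was not tested.

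Gpx4, which reduces peroxides of membrane lipids and thereby restrains ferroptosis, was at 490.2, 416.5, 401, 402 and 434 CPM in RetSat ko 1 to 5, against 477, 404, 479, 317 and 444 CPM in control 1 to 5. RetSat ko 1 was the highest and control 4 the lowest library, and the other 4 RetSat ko libraries lay within the control range. The log2 fold change was 0.01 ± 0.115 (SE), with a fold interval of 0.850 to 1.20 (edgeR adjusted p = 0.970). Of the 50-base stretches of its longest transcript, 61.7% also occur in other genes, mainly the pseudogene Gpx4-ps2, so its absolute level is uncertain. Gpx4-ps2 itself had 374 to 653 counts per library, against 36709 to 60187 for Gpx4.

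The fold changes of the 3 peroxiredoxins lay between 1.04 and 1.07. Prdx1, the abundant cytosolic form, was at 889.6 to 1058 CPM in RetSat ko (median 929.7) and 843 to 1027.5 CPM in control (median 944), with a fold change of 1.04, an interval of 0.907 to 1.19 and an edgeR adjusted p of 0.831. It had the highest counts of the 10 genes, 98708 to 137923 per library. Of its 50-base stretches, 10.9% also occur in other genes, among them the pseudogene Gm21399.

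Prdx6, which also has phospholipase activity and uses glutathione, was the steadiest of the 10 in control, at 343.5, 342, 333.5, 338 and 346 CPM (coefficient of variation 1.45%). In RetSat ko it was at 380.0, 334, 337, 355 and 356 CPM (5.19%). RetSat ko 1, 4 and 5 lay above every control library, and the fold change was 1.04 with an interval of 0.940 to 1.14 (edgeR adjusted p = 0.778).

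Prdx5, found in mitochondria, peroxisomes and cytosol, was at 609.9, 418, 509.9, 388 and 375.5 CPM in RetSat ko 1 to 5, against 426, 423, 437, 409 and 448 CPM in control 1 to 5. RetSat ko 1 and 3 lay above every control library and RetSat ko 4 and 5 below every control library. The coefficient of variation was 21.5% in RetSat ko and 3.46% in control, and this difference in spread was not tested. The log2 fold change was 0.10 ± 0.126 (SE, edgeR adjusted p = 0.768) and turned to -0.02 without RetSat ko 1. Its exons overlap those of Trmt112 on the opposite strand over 409 bases (19.1% of its exon bases), and the reads were counted without strand. Trmt112 had 921 to 1639 counts per library, against 45990 to 62263 for Prdx5.

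The genes whose pattern over the 10 libraries lay closest to the 3 most variable members were found by the root mean square difference of centred log2 CPM, among 8519 other genes with a mean of at least 10 CPM. Both genotypes enter this measure, so fold changes similar to that of the member partly follow from the selection. For Cat these were Tbc1d8b (0.0626), Map7 (0.0773) and Hsd17b11 (0.0843), a lipid droplet dehydrogenase, with log2 fold changes of -0.40, -0.32 and -0.41. For Gpx2, with a log2 SD of 0.442 of its own, the nearest genes lay farther off: Cyp2c55 (0.217), Acadsb (0.238) and Gsr (0.247), the glutathione reductase that regenerates the substrate of glutathione peroxidases, with log2 fold changes of 0.18, 0.18 and 0.15. For Prdx5 they were Msrb1 (0.0648), a selenoprotein that reduces oxidised methionine, Vamp8 (0.0657) and Card19 (0.0667), with log2 fold changes of 0.06, 0.07 and 0.07. None of these 9 genes passed the threshold (edgeR adjusted p from 0.291 to 0.844).

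The remaining genes of the pathway were examined through 8 lists of 79 genes, of which 77 were tested and 0 passed the threshold in either direction. At an unadjusted p under 0.05 were 14 of the 77, where 12.2% of all tested genes were, and 34 had positive and 43 negative log2 fold changes (median -0.03). In 1 of the 77 the groups did not overlap, against 2.31% of all tested genes. This gene, the glutaredoxin Glrx2, was singled out after its values were seen, at 21.0 to 22.5 CPM in RetSat ko and 18.0 to 20.9 CPM in control (edgeR adjusted p = 0.505). Without RetSat ko 1, 4 of them passed, where 4.45% of all 19001 genes tested in that fit did: Sod3, Glrx, Selenop and Xdh.

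Of the other family members 6 were tested, 5 positive and 1 negative, and Gpx5 and Gpx6 had too few counts. Sod3, the extracellular superoxide dismutase, was at 5.23, 8.87, 10.6, 12.5 and 11.2 CPM in RetSat ko 1 to 5, against 6.94, 7.27, 8.22, 7.76 and 7.68 CPM in control 1 to 5. RetSat ko 1 was the lowest and the other 4 the highest of all libraries. Its log2 fold change was 0.35 ± 0.186 with all libraries (edgeR adjusted p = 0.463) and 0.51 ± 0.101 without RetSat ko 1 (edgeR adjusted p = 0.0319). It was 0.15 ± 0.218 with the enterocyte sum as a covariate and 0.09 ± 0.234 with the crypt sum (edgeR adjusted p = 0.873 and 1.0). Prdx4, the peroxiredoxin of the endoplasmic reticulum, had a log2 fold change of 0.20 ± 0.0859 and Prdx3, that of mitochondria, 0.07 ± 0.0532 (edgeR adjusted p = 0.378 and 0.598).

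The list for glutathione and NADPH held 14 genes, the glutaredoxins Glrx, Glrx2, Glrx3 and Glrx5 among them, and 6 were positive and 8 negative. Glrx, the cytosolic glutaredoxin, was at 240.1, 184, 211, 183 and 181 CPM in RetSat ko 1 to 5, against 225.6 to 252 CPM in control. All RetSat ko libraries but RetSat ko 1 were below every control library. Its log2 fold change was -0.28 ± 0.0873 (edgeR adjusted p = 0.303), and -0.35 ± 0.0639 without RetSat ko 1 (edgeR adjusted p = 0.0264). It was -0.19 ± 0.0776 with the enterocyte sum as a covariate and -0.18 ± 0.0895 with the crypt sum (edgeR adjusted p = 0.483 and 1.0). Gclm, the modifier subunit of the enzyme that starts glutathione synthesis, had -0.29 ± 0.0978, and Glrx5, a mitochondrial glutaredoxin of iron-sulfur cluster assembly, had 0.21 ± 0.0850 (edgeR adjusted p = 0.314 and 0.355). In the thioredoxin system 4 of 10 genes were positive and 6 negative, with log2 fold changes of 0.25 for Txnip, an inhibitor of thioredoxin, 0.12 for Txnrd3 and -0.12 for Txnrd1, the cytosolic thioredoxin reductase.

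Of 9 genes for selenoprotein synthesis and selenium transport, 4 were positive and 5 negative. Selenop, the secreted selenium carrier, was at 4247, 2282, 2704, 2864 and 2284 CPM in RetSat ko 1 to 5, against 5262, 4127, 5107, 2939.8 and 4355 CPM in control 1 to 5. All RetSat ko libraries but RetSat ko 1 lay below every control library, with control 4 the closest. Its log2 fold change was -0.60 ± 0.205 (edgeR adjusted p = 0.314), -0.78 ± 0.164 without RetSat ko 1 (edgeR adjusted p = 0.0336), -0.28 ± 0.119 with the enterocyte sum as a covariate (edgeR adjusted p = 0.496), and -0.43 ± 0.219 with the crypt sum (edgeR adjusted p = 1.0). Trnau1ap, which binds the selenocysteine tRNA, had 0.22 ± 0.0784 and Sepsecs, which makes selenocysteine on that tRNA, -0.19 ± 0.0776 (edgeR adjusted p = 0.321 and 0.364). Among the 3 genes of metal delivery, Ccs, the copper chaperone of Sod1, had -0.03, the copper importer Slc31a1 -0.09 and the copper chaperone Atox1 0.07.

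Of 15 enzymes that produce superoxide or peroxide, 8 were positive and 7 negative. Xdh, which makes both while degrading purines, was at 1087.5, 695, 770.4, 737 and 690.0 CPM in RetSat ko 1 to 5, against 902, 1148, 971, 1233 and 929 CPM in control 1 to 5. All RetSat ko libraries but RetSat ko 1 were below every control library. Its log2 fold change was -0.38 ± 0.144 (edgeR adjusted p = 0.332), and -0.52 ± 0.104 without RetSat ko 1 (edgeR adjusted p = 0.0319). It was -0.35 ± 0.152 with the enterocyte sum as a covariate and -0.14 ± 0.114 with the crypt sum (edgeR adjusted p = 0.499 and 1.0). Maoa, monoamine oxidase A, had -0.34 ± 0.157 (edgeR adjusted p = 0.415).

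Of the 15 genes for peroxisome assembly, the organelle that holds catalase, 4 were positive and 11 negative, with a median of -0.09. The membrane transporter Abcd3 had a log2 fold change of -0.21 ± 0.111 and the docking factor Pex13 -0.16 ± 0.0857 (edgeR adjusted p = 0.453 and 0.475). Among 5 genes of the NRF2 stress pathway, 2 were positive and 3 negative. Keap1, the inhibitor of NRF2, had -0.15 ± 0.0620, the repressor Bach1 -0.30 ± 0.165 and the haem oxygenase Hmox1 0.33 ± 0.174 (edgeR adjusted p from 0.363 to 0.484).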

How the data were processed

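RNA sequencing counts of 10 jejunum libraries, 5 RetSat ko and 5 control, were grouped by the genotype and titles in the labels. The authors deposited whole-number counts per gene, not normalised. The submitters' processing notes name Trimmomatic, STAR and GRCm39. Per the file headers, counting used featureCounts 2.0.1 over exons of GENCODE mouse release M28, with no option for strand, read pairs or reads with several alignments. Overlapping genes on opposite strands are therefore not separated, and reads that fit near-identical copies are left out by default.

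Symbols were matched by identifier (94.0% of identifiers). Counts were analysed in R 4.3.3 with filterByExpr, TMM factors and edgeR 4.0.16 (quasi-likelihood F-test, robust, no covariates, Benjamini-Hochberg adjustment over 18654 genes, threshold 0.05). SE is the absolute log2 fold change over the root of F, and intervals are 95%. Alternatives used DESeq2 1.42.0, limma 3.58.1 and other factors, filters, covariates and sets of libraries. No pair of libraries was a duplicate (chi-square per degree of freedom at least 55.6 over 45 pairs). The main fit was tested on simulated data, where it recovered 42% of genes changed 1.5-fold and 86% of genes changed 2-fold. It called 164 genes there, against 6 in the real libraries. Whether these recovery rates hold for the real libraries was not tested. Changes of 1.5-fold or less could therefore be missed, and so could changes of 2-fold. The members and lists were chosen with earlier results of these data known. Named genes are Retsat, the members, the 3 genes of smallest p in each pathway list and the 3 nearest patterns of the 3 most variable members. Results for 2 genes that this rule names are not reported here.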

Additional observations from a re-analysis of the deposited data

Results flagged for a closer look

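In each group of 5 libraries the gap between the most extreme library and its neighbour was compared with the group's range, for the 10 genes, Retsat and the named genes of the pathway lists. Chance flags about 1 in 20 groups, and 4 of 70 groups met the limit. Retsat was at 33.4 CPM in RetSat ko 5, against 15.4 to 16.8 CPM in the other 4 RetSat ko libraries. RetSat ko 5 was also the library with the most hepatocyte transcripts (138.5 CPM), and their part in its Retsat level was not tested. Xdh was at 1087.5 CPM in RetSat ko 1, against 690.0 to 770.4 CPM in the other 4. In control 3 Prdx4 stood at 21.0 CPM, below the 26.2 to 27.2 CPM of the remaining 4 controls. In control 5 Atox1 stood at 63.1 CPM, above the 57.0 to 58.4 CPM of the remaining 4. None of the 10 superoxide and peroxide removing enzymes met it in either group.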

How the results depend on the processing

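Under 24 alternatives, 0 of the 10 genes passed the threshold in any. Cat stayed negative in all (-0.54 to -0.25) and Gpx2 positive (0.44 to 0.82). Over all genes, DESeq2 called 123, sample weights 12, and leaving out 1 library 5 to 846 (6 with all). In the pathway lists, leaving out 1 library gave 0 to 4 calls. Log2 fold changes near 0 changed sign. Sod1 did so with upper-quartile factors (0.0047), the acinar (0.007), enterocyte (0.12) and crypt (0.0004) covariates, and ranged from -0.07 to 0.06 without single libraries. Sod2 did so with sample weights (-0.0049) and with RetSat ko 1 and 2 and control 4 and 5, rich in acinar transcripts, left out (-0.01). Gpx4 did so with sample weights (-0.05), without those 4 (-0.14), with the 3 libraries richest in B cell transcripts left out (-0.06), and ranged from -0.07 to 0.06 without single libraries. Prdx5 did so with sample weights (-0.0065) and without those 4 (-0.01), and ranged from -0.02 to 0.17. With the enterocyte covariate Ccs was at 0.04 and Slc31a1 at 0.09, with the crypt covariate Slc31a1 was at 0.06 and Txnrd1 at 0.01, and Atox1 ranged from -0.0003 to 0.10 without single libraries. The cause was not tested. The covariates of enterocyte and crypt markers were chosen after seeing the data. Retsat kept its direction (-4.51) but missed the threshold once those 4 were left out (edgeR adjusted p = 0.0918). The labels do not say that same-numbered libraries are pairs, and the main fit did not pair them. Correlations of their deviations ran from -0.149 to 0.002, which does not settle whether animals were paired. With a replicate block 4 genes and 0 of the 10 members were called. Gpx2 then had a log2 fold change of 0.52 ± 0.0981 (edgeR adjusted p = 0.447), against an SE of 0.204 without the block. The SE also fell for Gpx3, Gpx4 and Prdx5. It rose for Cat (from 0.129 to 0.143), Sod1, Sod2, Gpx1, Prdx1 and Prdx6.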
